A study of Mus musculus with 34 samples.

Results

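Distal regions that carried H3K4me1 and neither H3K27ac nor H3K27me3 were taken from the unstimulated CTCF-WT dendritic cells. A region was a WT_H3K4me1 peak at least 1 kb wide that overlapped no promoter (2.5 kb to either side of a transcription start site), no WT_H3K27ac peak and no WT_H3K27me3 peak. These criteria kept 23214 of the 94694 WT_H3K4me1 peaks, or 24.5% (95% Wilson interval 24.2 to 24.8%), and 56.9% (56.4 to 57.3%) of the 40821 distal WT_H3K4me1 peaks of at least 1 kb. They are called primed regions here. The members were selected on the H3K4me1, H3K27ac and H3K27me3 peaks of unstimulated CTCF-WT cells, so the absence of the last 2 marks in these lists is a description and not a result.

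The study asked how CTCF bears on chromatin and NF-κB binding in bone marrow-derived dendritic cells (BMDCs) of C57BL/6 mice, for which the labels give an age of 8 weeks. BMDCs were grown from bone marrow with GM-CSF for 6 days. CTCF-WT cells carried CreER and CTCF-KO cells carried CreER with CTCF fl/fl, and both received 4-hydroxytamoxifen on the first day of culture, so both groups differentiated with an active Cre. WT and KO denote the unstimulated cells, and WTLPS and KOLPS the cells given 100 ng/ml LPS for 3 h. STAT5 was profiled in WT and KO after restimulation with GM-CSF for 15 min.

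Peak lists exist for 30 of the 34 samples, with no second list for any antibody in any condition, and the other 4 samples are inputs. With 1 list per condition no difference could be tested against a spread between replicates, and the intervals given cover counting error over regions only. In these bulk samples, more cells with a mark and more of it per cell cannot be told apart. CTCF itself had 60537 peaks in WT and 20151 in KO. H3K4me3 marked the promoters of 10 of 10 dendritic and myeloid genes in all 4 conditions, among them Itgax, Spi1 and Irf8. Of the markers of other cells, 1 of 4 T cell genes (Tcf7), 1 of 3 B cell genes (Pax5), 1 of 3 erythroid genes (Klf1) and 1 of 4 neutrophil genes (S100a8) had an H3K4me3 promoter peak, the same genes in each condition. The background coverage recovered from the peaks was 1.173 and 1.198 fragments per base in the WT and WTLPS libraries of H3K27ac, and 0.748 and 0.801 in those of KO and KOLPS. It lay between 0.705 and 0.855 for p65 and between 4.495 and 5.77 for SMC1.

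H3K4me1 is laid down by the MLL3 and MLL4 methyltransferases at enhancers, often before they become active. A primed enhancer carries this mark alone, an active one also carries H3K27ac, and a poised one carries H3K27me3 from the Polycomb complex. In dendritic cells LPS acts through the receptor TLR4 to release NF-κB, whose p65 (RelA) subunit moves to the nucleus and binds κB sites. SMC1 is a subunit of the cohesin ring, which extrudes chromatin loops and is halted where CTCF is bound.

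The primed regions that gained the strongest p65 peaks are shown first, since they carry the binding that the rest of the text counts. Each line gives 120 bases of the plus strand of GRCm38 (the build also called mm10, taken from RefSeq) around the p65 summit, in lower case with any match to the κB consensus in capitals. The first 5 gained p65 in CTCF-WT cells. The window near Twist2 lies at chr1:91674301-91674420, that of Ell2 at chr13:75754484-75754603, that of Stpg2 at chr3:139886136-139886255, that of Ripor2 at chr13:24591913-24592032 and that of Tasp1 at chr2:139919881-139920000.
Twist2: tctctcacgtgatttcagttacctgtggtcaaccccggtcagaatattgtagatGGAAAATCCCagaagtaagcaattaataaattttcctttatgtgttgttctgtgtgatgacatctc
Ell2: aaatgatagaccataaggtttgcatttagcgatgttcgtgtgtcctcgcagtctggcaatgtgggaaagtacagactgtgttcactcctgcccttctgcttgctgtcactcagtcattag
Stpg2: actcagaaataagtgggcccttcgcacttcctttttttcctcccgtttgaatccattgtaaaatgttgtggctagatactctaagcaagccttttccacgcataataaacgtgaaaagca
Ripor2: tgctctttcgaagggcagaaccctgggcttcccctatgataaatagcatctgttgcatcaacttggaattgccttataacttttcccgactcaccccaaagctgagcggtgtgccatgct
Tasp1: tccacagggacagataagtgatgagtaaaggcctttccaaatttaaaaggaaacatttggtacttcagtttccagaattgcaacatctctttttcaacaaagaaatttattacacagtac

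The next 5 gained p65 in CTCF-KO cells. The window near Esr2 lies at chr12:76063182-76063301, that of Tlx1 at chr19:45176394-45176513, that of Batf at chr12:85710688-85710807, that of Hcar2 at chr5:123832461-123832580 and that of Dusp23 at chr1:172643754-172643873.
Esr2: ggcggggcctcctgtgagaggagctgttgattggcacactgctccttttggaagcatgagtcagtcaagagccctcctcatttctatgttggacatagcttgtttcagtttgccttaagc
Tlx1: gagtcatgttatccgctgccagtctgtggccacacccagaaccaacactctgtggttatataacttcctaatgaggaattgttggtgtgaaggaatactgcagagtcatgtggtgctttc
Batf: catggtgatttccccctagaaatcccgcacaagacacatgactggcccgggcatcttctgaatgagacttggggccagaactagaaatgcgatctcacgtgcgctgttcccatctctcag
Hcar2: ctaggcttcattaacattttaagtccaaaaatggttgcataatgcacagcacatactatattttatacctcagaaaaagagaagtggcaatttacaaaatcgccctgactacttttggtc
Dusp23: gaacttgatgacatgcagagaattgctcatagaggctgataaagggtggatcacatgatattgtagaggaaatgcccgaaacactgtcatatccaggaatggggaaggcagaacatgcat
Of these 10 windows, 1 held a κB match. It starts at base 55 of the Twist2 window, and its middle lies 1 base from the summit of the strongest p65 peak gained by any primed region.

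Primed regions were smaller than active ones. Their median width was 1940 bp, from 1000 to 42006 bp, against 4153 bp in the 12371 distal regions with H3K27ac and no H3K27me3 (active) and 2150 bp in the 4204 with H3K27me3 and no H3K27ac (poised). The median fold of H3K4me1 over background was 2.59 in primed, 2.62 in poised and 2.90 in active regions. The centre of 62.6% of primed regions lay in an intron, of 5.30% in an exon and of 32.1% outside genes, while 52.5% of poised regions lay outside genes. The nearest start site of a protein-coding gene was at a median of 36900 bp, and 21.1% of primed regions were over 100 kb from any. The nearest WT_H3K27ac peak was at a median of 13451 bp, and 828 primed regions (3.57%) had one within 1 kb.

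The 3 widest primed regions had their centres in introns of genes that regulate chromatin, autophagy and transcription. That of Nipbl, the cohesin loader, spanned 42006 bp at chr15:8387473-8429478. That of Ambra1, an autophagy regulator, spanned 36821 bp, and that of Trim33, a transcriptional cofactor, 22177 bp. The Nipbl region gained H3K27ac in CTCF-WT, with a fold of 3.64, and had SMC1 before (3.44) and after (3.84) LPS. The Ambra1 region gained none of H3K27ac, p65 and SMC1.

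At the width limit of the rule, the 200 narrowest primed regions (1000 to 1009 bp) had a median H3K4me1 fold of 2.41, and the 200 widest left out for width (990 to 999 bp) one of 2.39. Of those just inside, 10 gained H3K27ac, 1 gained p65 and 4 gained SMC1 in CTCF-WT. Just outside, 15, 5 and 9 did. Width alone left out 24106 peaks that met the other criteria, and a promoter alone left out 5972.

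Most primed regions had little beside H3K4me1. In 12562 of 23214 (54.1%, 53.5 to 54.8%) no peak of any other antibody was found in any condition. The same 12562 made up 30.8% of all distal regions. The rule sets this in part, since regions with H3K27ac or H3K27me3 in WT could not be among them. H3K4me1 itself was still called at 91.8% in WTLPS, at 85.4% in KO and at 65.4% (64.7 to 66.0%) in KOLPS. Active regions kept it at 98.9, 97.3 and 90.4%. The KOLPS list of H3K4me1 was also the shortest of the 4, with 79120 peaks covering 148.6 Mb against 94694 peaks covering 258.9 Mb in WT, and the part of this in the lower share was not tested.

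The other lists marked a minority of primed regions. H3K27me3 was called at 3.44% in KO and at 2.00% in WTLPS, against 9.70 and 8.03% of all distal regions. The rule bears on these shares, since it left out regions with H3K27me3 in WT. H3K4me3, which the rule did not use, was called at between 1.99 and 3.21% over the 4 conditions. Over all distal regions it was called at between 5.35 and 8.73%. STAT5, the factor activated by GM-CSF, was called at 926 primed regions (3.99%) in WT and 760 (3.27%) in KO, against 18.1 and 14.4% of active regions and 9.12 and 7.33% of all distal regions. CTCF was called at 3250 primed regions (14.0%) of WT and 2892 (12.5%) of WTLPS cells, against 862 (3.71%) of KO and 498 (2.15%) of KOLPS cells. Over all distal regions the shares were 17.8, 15.9, 5.28 and 3.21% in the same order. SMC1 followed the same order, with 3965 (17.1%), 3590 (15.5%), 1798 (7.75%) and 712 (3.07%), where all distal regions had 32.8, 30.2, 22.3 and 13.3%. Of primed regions with WT CTCF, 63.4% also had WT SMC1, against 9.53% of those without.

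A gain was called where a peak of the LPS list overlapped the region by at least 1 bp and no peak of the unstimulated list of the same genotype did. A loss is the opposite. In CTCF-WT cells 2944 primed regions (12.7%, 12.3 to 13.1%) gained H3K27ac, where 8.2% of all distal regions did. Nothing is read from this difference, since the rule left out regions with H3K27ac in WT, which could not gain it. For the same reason no primed region could lose H3K27ac in CTCF-WT. H3K27ac of unstimulated KO cells was called at 1983 primed regions (8.54%, 8.19 to 8.91%), against 9.75% of poised and 27.4% of all distal regions. The rule did not use the KO list, but leaving out WT H3K27ac bears on this share.

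In CTCF-KO cells 1092 primed regions (4.70%, 4.44 to 4.98%) gained H3K27ac and 1217 (5.24%, 4.96 to 5.54%) lost it. Among all distal regions 5.56% gained and 8.67% lost it. Only regions with H3K27ac in KO could lose it. Of these, 1217 of 1983 primed and 3538 of 11174 distal regions did, a comparison on which the rule bears. With all 4 lists thinned to the lowest background coverage of the H3K27ac libraries, the expected gains were 2190 in CTCF-WT and 1034 in CTCF-KO. The order of these H3K27ac gains between genotypes is in part set by the rule, which asked for no H3K27ac peak in WT and not in KO, so nothing is read from it. Over all distal regions 3349 gained H3K27ac in CTCF-WT and 2270 in CTCF-KO. Gains did not outnumber losses in CTCF-KO primed regions, and H3K27ac was called at 8.54% of them before LPS and at 8.00% after.

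p65 was gained at more primed regions than it was lost at. Only the 23 with a p65 peak in WT and the 7 with one in KO could lose it. It was gained at 314 primed regions (1.35%, 1.21 to 1.51%) and lost at 2 in CTCF-WT, and gained at 51 (0.220%, 0.167 to 0.289%) and lost at 2 in CTCF-KO. With the p65 lists cut to the length of the shortest, 24 and 11 regions gained it, which moves the ratio of CTCF-KO to CTCF-WT gains from 0.162 to 0.458. Of all distal regions 4.92% gained and 0.0441% lost p65 in CTCF-WT, and 1.3% gained and 0.0784% lost it in CTCF-KO. Primed regions therefore lay below the background in both genotypes, and below active regions, of which 11.1% (10.5 to 11.7%) gained p65 in CTCF-WT and 3.09% (2.80 to 3.41%) in CTCF-KO. In the central 1 kb of each region, which takes out the width, 0.853% of primed, 1.95% of poised and 4.58% of active regions gained p65 in CTCF-WT.

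SMC1 went both ways. It was gained at 921 primed regions (3.97%, 3.72 to 4.23%) and lost at 1296 (5.58%, 5.29 to 5.89%) in CTCF-WT, against 4.73% and 7.27% of all distal regions. In CTCF-KO it was gained at 204 (0.879%, 0.767 to 1.01%) and lost at 1290 (5.56%, 5.27 to 5.86%), against 1.64% and 10.6%. A region without the unstimulated peak could not lose it. Of regions with that peak, 1296 of 3965 primed and 2966 of 13381 distal regions lost it in CTCF-WT. In CTCF-KO 1290 of 1798 and 4332 of 9104 did. Primed regions with SMC1 thus lost it more often than all distal regions with it, in both genotypes. The LPS lists of SMC1 were shorter than the unstimulated ones. They held 57354 against 63638 peaks in CTCF-WT and 17241 against 29965 in CTCF-KO. The part of list length in the excess of losses over gains was not tested. With each antibody's 4 lists cut to the number of peaks in the shortest, SMC1 gains numbered 161 in CTCF-WT and 329 in CTCF-KO. Their order between genotypes thus turned with the length of the lists. KOLPS was itself the shortest, so the cut took peaks from KO and none from KOLPS. Under it the CTCF-KO gains could not fall, and nothing on the genotypes is read from the turn.

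**Figure D1:**
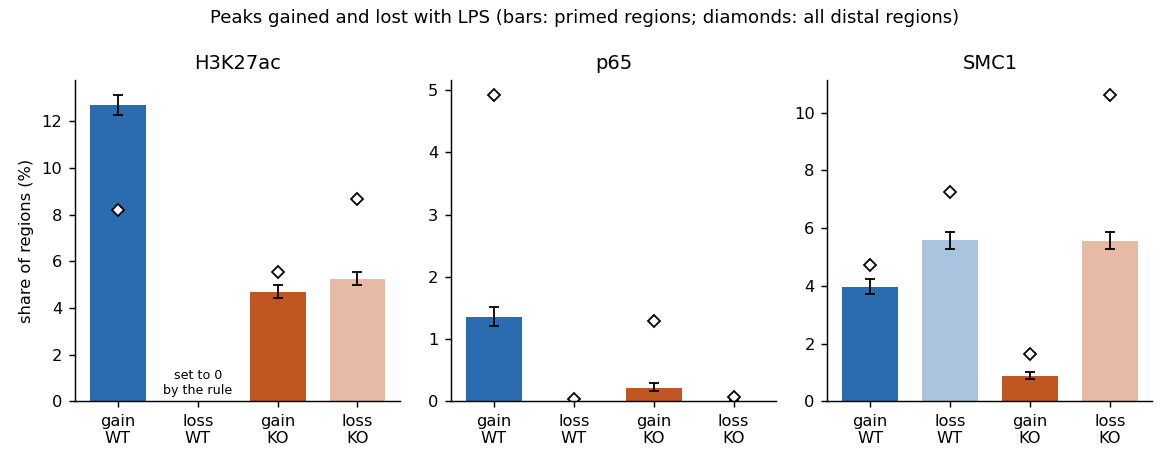
Share of the 23214 primed regions that gained or lost a peak with LPS (bars, with 95% Wilson intervals) for each mark and genotype, in percent, with the share of all 40821 distal regions as diamonds. p65 gains outnumber losses in both genotypes, while SMC1 losses exceed gains in both. The LPS lists of SMC1 are also shorter than the unstimulated ones. Losses are shares of all regions, also of those without an unstimulated peak to lose.

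Some primed regions gained a mark in both genotypes. For H3K27ac, 467 primed regions gained it in both genotypes, which is 15.9% of the CTCF-WT and 42.8% of the CTCF-KO gains, against 16.0% and 23.6% over all distal regions. The rule bears on these shares too. For p65 the overlap was 35, or 11.1% and 68.6%, against 17.1% and 64.9%. For SMC1 it was 41, or 4.45% and 20.1%, against 7.31% and 21.1%. Of the 2944 regions that gained H3K27ac in CTCF-WT, 584 (19.8%) already had it in KO and 838 (28.5%) had it in KOLPS. Of the 921 that gained SMC1 in CTCF-WT, 123 (13.4%) had it in KO and 68 (7.38%) in KOLPS.

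Gained peaks were compared in strength with all peaks of their list. The median fold of the strongest H3K27ac peak in a gaining primed region was 4.55 in WTLPS, where the list median was 4.57, and 36.2% (34.5 to 37.9%) of the regions had a peak above that list median. In KOLPS 18.3% did. For SMC1 the share was 10.5% (8.71 to 12.7%) in WTLPS and 16.7% in KOLPS. For p65 it was 49.7% (44.2 to 55.2%) in WTLPS and 39.2% (27.03 to 52.9%) in KOLPS, so p65 peaks at primed regions were about as strong as the others of their list.

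The strongest p65 gain was near Twist2, a basic helix-loop-helix transcription factor. The region (chr1:91674224-91675974, outside genes, 126371 bp from the start site) had no p65 peak in WT and a fold of 35.6 after LPS. In CTCF-KO its fold was 9.38 without and 14.3 with LPS. It also gained H3K27ac, with a fold of 6.01 in WTLPS and 6.11 in KOLPS and no peak without LPS. SMC1 was gained there too, with 9.02 in WTLPS and 5.10 in KOLPS. The intronic region of Ell2, an elongation factor of RNA polymerase II (chr13:75750081-75754947), had p65 in WTLPS alone, with a fold of 26.9. Its H3K27ac fold was 6.83 in WTLPS, 4.00 in KO and 5.55 in KOLPS, and SMC1 was called in WTLPS alone (4.95).

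The region nearest to Stpg2, 681275 bp from the start site, gained p65 without H3K27ac. Its p65 fold was 25.9 in WTLPS and 7.71 in KOLPS, no H3K27ac peak was called in any condition, and SMC1 was called in all 4 (without LPS 6.56 for WT and 4.42 for KO, with LPS 14.5 for CTCF-WT and 5.64 for CTCF-KO). The intronic regions of Ripor2 and of Tasp1, the protease that cleaves MLL, each had a p65 fold of 25.3 in WTLPS. In KOLPS the Ripor2 region had no p65 peak and the Tasp1 region one of 7.15. By the same WTLPS p65 fold, the 3 strongest regions that gained H3K27ac, p65 and SMC1 together in CTCF-WT were those of Twist2, Ell2 and Ripor2. The Tasp1 region, tied with that of Ripor2, also gained all 3 (H3K27ac 8.19 and SMC1 8.72 in WTLPS).

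In CTCF-KO the highest p65 fold at a gaining primed region was 17.6, in a Syne2 intron with Esr2, the estrogen receptor beta gene, as the nearest start site (113891 bp away, chr12:76062818-76063917). This region had p65 folds of 7.59 in WT and 26.4 in WTLPS, so it did not count as a gain in CTCF-WT. The region near Tlx1, a homeobox factor, had 15.96 in KOLPS and 13.5 in WTLPS. That near Batf, an AP-1 family factor of dendritic cells, had 14.3 in KOLPS and 10.8 in WTLPS. The regions near Hcar2, the receptor for hydroxybutyrate and niacin, and Dusp23, a phosphatase, had 13.8 and 12.1 in KOLPS against 14.6 and 4.31 in WTLPS. SMC1 was called before LPS in KO at 4 of these 5, with folds of 5.68 to 7.26, and not at that of Esr2. The other 2 leading regions that gained all 3 in CTCF-KO, near Hmga2 and in a Clec16a intron, had p65 folds of 7.71 and 6.08 in KOLPS, and at that of Hmga2 no p65 peak was called in WTLPS.

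**Figure D2:**
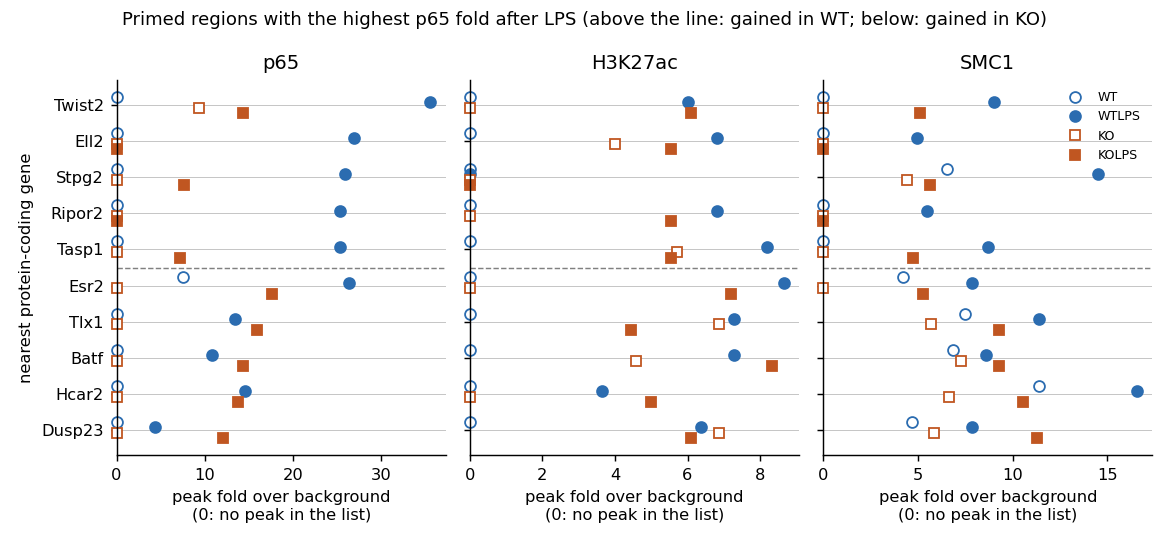
Fold over background of the strongest p65, H3K27ac and SMC1 peak in each condition (open symbols without LPS, filled with LPS; 0 where the list has no peak) at the 5 primed regions with the highest p65 fold gained in CTCF-WT and the 5 gained in CTCF-KO. At the upper 5 the WTLPS p65 fold lies between 25.3 and 35.6, a range that the choice of these regions by their WTLPS fold sets.

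The strongest H3K27ac gain in CTCF-WT was near Cxcl5, a chemokine that attracts neutrophils. Its region (chr5:90708821-90710766) had an H3K27ac fold of 17.3 in WTLPS, 4.00 in KO and 6.46 in KOLPS, and gained p65 (11.2) and SMC1 (4.88) in WTLPS alone. The next 4 lay in introns of Slc9a3r1 (15.5), Zfp607a (15.0) and Zfp180 (13.8) and near Slc39a14, a zinc transporter gene (14.1), and had neither p65 nor SMC1 in any condition. The Zfp607a region had H3K27ac in KO (17.2) as well as in KOLPS (13.9), and that of Slc39a14 in neither. The regions of Cxcl5, Slc9a3r1 and Zfp607a lay 968, 659 and 114 bp from a WT_H3K27ac peak.

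In CTCF-KO the strongest H3K27ac gain was at another region near Batf (chr12:85666357-85668030, 19475 bp from the start site), with a fold of 13.3 in KOLPS and 6.37 in WTLPS. It also gained p65 in both, with 18.9 in WTLPS and 4.95 in KOLPS. The regions near Itgb2l (9.996 in KOLPS), in Atp10a (9.996), near Tnfaip3 (9.44) and near Arrdc4 (9.44) followed, and each had H3K27ac in WTLPS at a fold between 5.01 and 9.21. Tnfaip3 encodes A20, which restrains NF-κB signalling.

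The regions with the strongest SMC1 gains in CTCF-WT held CTCF peaks. The regions near Ifrd1 (fold 23.1 in WTLPS), Lbr (18.8), Eci2 (16.7), Papss1 (15.8) and in an Edem3 exon (15.7) all had a WT CTCF peak, and none had p65, H3K27ac or SMC1 in any other condition. In WTLPS the Ifrd1 region had no CTCF peak and the others had one. Whether CTCF lay under the SMC1 peak itself was not looked at. None of the 5 strongest in CTCF-KO had a CTCF peak in any condition. The regions near Trmt11 (6.55 in KOLPS), Actbl2 (6.01), Ankrd46 (6.01), Vdr (5.64), the vitamin D receptor, and Atp2b1 (5.28), a calcium pump, had SMC1 in WTLPS too, except that of Vdr. Of all 921 primed regions that gained SMC1 in CTCF-WT, 18.7% (16.3 to 21.3%) had WT CTCF, against 13.8% of the others.

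Primed regions that gained p65 in CTCF-WT stood apart in their other peaks. H3K27ac was gained at 205 of the 314 (65.3%, 59.9 to 70.3%), against 11.96% (11.5 to 12.4%) of the 22900 others. SMC1 was gained at 104 (33.1%, 28.2 to 38.5%), against 3.57% (3.34 to 3.82%), and lost at 3 (0.955%), against 5.65%. SMC1 was already called in WT at 139 of the 314 (44.3%, 38.9 to 49.8%) and at 16.7% of the others, and in WTLPS at 240 (76.4%). CTCF was called in WT at 53 (16.9%, 13.1 to 21.4%), close to the 13.96% of the others. All 3 were gained at 73 regions in CTCF-WT and at 5 in CTCF-KO, and 19614 (84.5%) gained none in CTCF-WT.

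The regions gaining p65 were wider, with a median of 2894 bp against 1931 bp. When the primed regions were put into 4 groups of equal size by width, H3K27ac was gained at 43.2% (28.7 to 59.1%) of the 37 narrowest that gained p65 against 6.82% of the 5773 narrowest that did not. In the widest group it was 75.8% (68.5 to 81.9%) of 153 against 20.8% of 5651. In the central 1 kb alone, H3K27ac was gained at 100 of 198 (50.5%, 43.6 to 57.4%) against 7.80% of the others, and SMC1 at 36.9% (30.5 to 43.8%) against 2.65%. The difference between p65-gaining and other primed regions thus stood in each width group.

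The gained p65 peak itself overlapped a WTLPS SMC1 peak at 225 of 314 (71.7%, 66.4 to 76.4%), a WT SMC1 peak at 106 (33.8%) and a WTLPS H3K27ac peak at 114 (36.3%, 31.2 to 41.8%). A WT CTCF peak lay under 14 (4.46%) and a WT STAT5 peak under 41 (13.1%, 9.77 to 17.2%). Over whole regions STAT5 was called at 16.2% (12.6 to 20.7%) of those that gained p65 and at 3.82% of the others. In CTCF-KO the p65 peak overlapped KOLPS SMC1 at 41 of 51 (80.4%, 67.5 to 89.0%). p65 without LPS was rare, at 23 primed regions in WT and 7 in KO, of which 21 and 5 kept it with LPS.

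**Figure D3:**
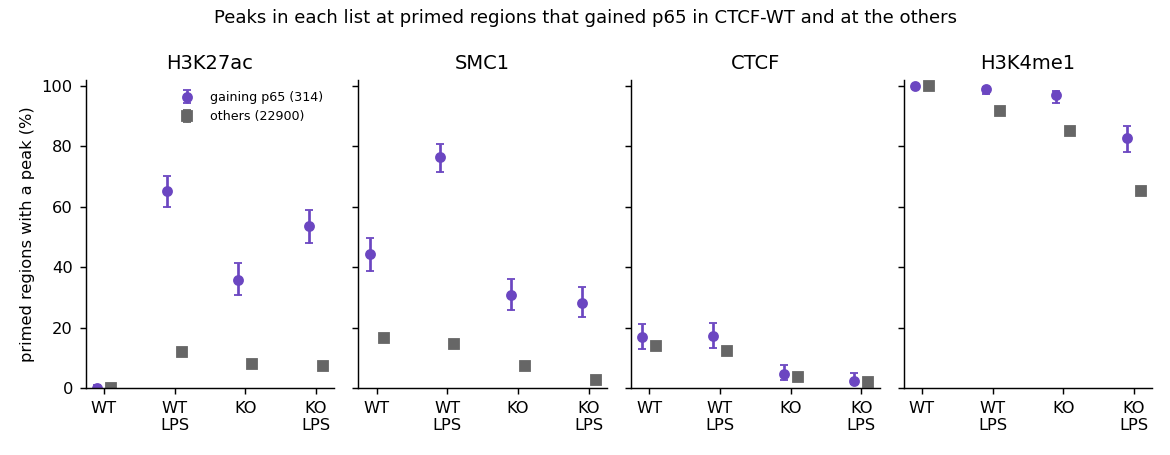
Share of primed regions with a peak of H3K27ac, SMC1, CTCF and H3K4me1 in each condition (percent, 95% Wilson intervals), for the 314 that gained p65 in CTCF-WT (circles) and the 22900 others (squares). H3K27ac and SMC1 are higher at the p65-gaining regions in WTLPS, KO and KOLPS, and the CTCF shares lie close together.

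Few of these p65 gains were found in CTCF-KO. Of the 314 regions, 37 (11.8%, 8.67 to 15.8%) had a p65 peak in KOLPS and 2 in KO. The whole p65 lists held 5465 peaks in WTLPS, 1752 in KOLPS and 504 in KO. The part of list length in the low share was not tested. H3K27ac was called at 36.0% of the 314 in KO and 53.5% (48.0 to 59.0%) in KOLPS, from far longer lists of 81404 and 78202 peaks. Of the 1372 active regions that gained p65 in CTCF-WT, 272 (19.8%, 17.8 to 22.0%) had p65 in KOLPS, with a median WTLPS fold of 7.01 in both classes. Of the 144 poised regions that gained it, 14 (9.72%, 5.88 to 15.7%) had p65 in KOLPS, with an interval that overlaps that of primed regions. The share rose with the fold of the WTLPS peak. For a fold above 10.2 it was 26.1% (17.2 to 37.5%) of 69 primed, 36.0% (20.2 to 55.5%) of 25 poised and 48.4% (42.5 to 54.3%) of 275 active regions, and for a fold up to 5.64 it was 6.76% (2.92 to 14.9%) of 74 primed and 6.82% (4.502 to 10.2%) of 308 active regions. In the 2 groups of fold between these, 5.95 and 10.3% of primed and 10.9 and 19.0% of active regions had it. A KOLPS peak anywhere in the region counted, and active regions were wider as a class (median 4153 against 1940 bp). The part of width in the contrast of the classes was not tested.

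**Figure D4:**
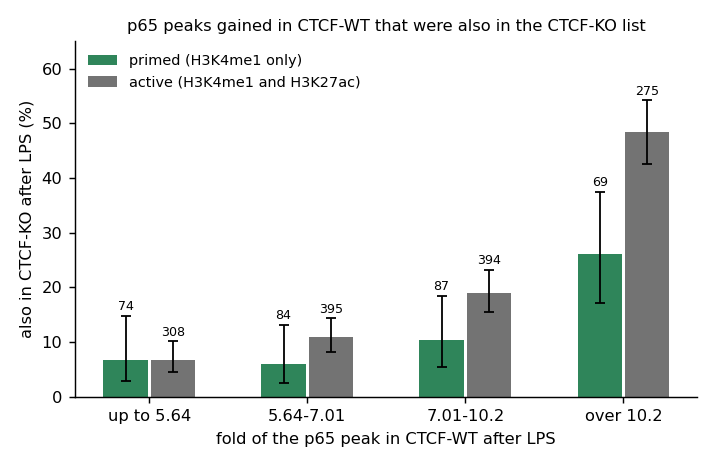
Share of regions gaining p65 in CTCF-WT that also had a p65 peak in the KOLPS list (percent, 95% Wilson intervals), by the fold of the WTLPS p65 peak, for primed and active regions, with the number of regions above each bar. The intervals of the classes do not overlap above a fold of 10.2 and overlap in the lower 3 groups. A KOLPS peak anywhere in the region counts, and the greater width of active regions is not taken out.

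Gains were then set against the distance to unstimulated H3K27ac, as a description, since the rule used these same peaks and a region close to one lies just outside it. H3K27ac was gained in CTCF-WT at 31.3% (28.2 to 34.5%) of primed regions within 1 kb of a WT_H3K27ac peak, at 13.3% of those 5 to 10 kb away and at 7.50% (6.74 to 8.33%) of those over 50 kb away. The median width changed little over these groups, from 1776 to 2031 bp. p65 was gained in CTCF-WT at 0.845% (0.410 to 1.73%) of the nearest and 2.09% (1.70 to 2.57%) of the farthest. SMC1 gains were 5.07% (3.77 to 6.79%) and 3.90% (3.36 to 4.53%). In CTCF-KO, H3K27ac gains were 6.04% (4.61 to 7.87%) in the nearest and 3.22% (2.73 to 3.79%) in the farthest.

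**Figure D5:**
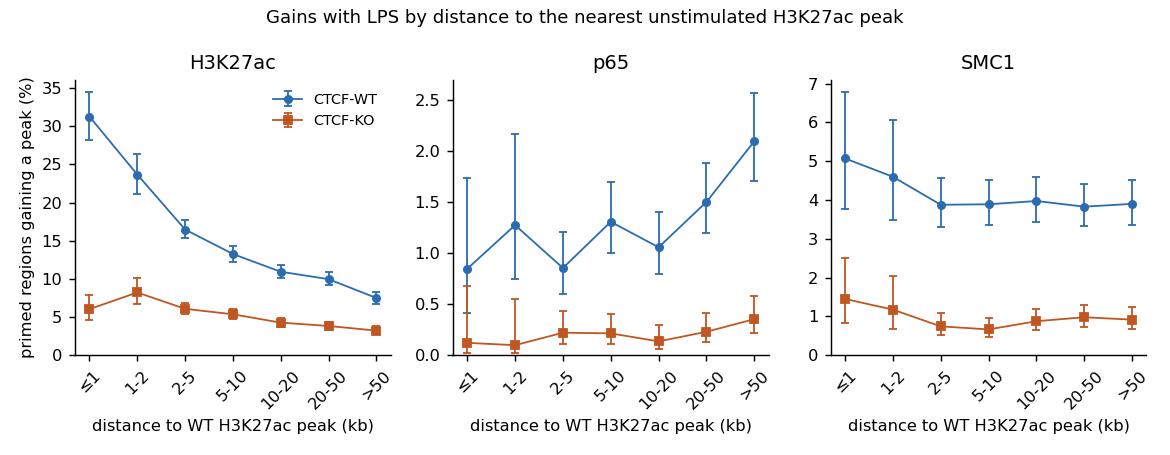
Share of primed regions that gained H3K27ac, p65 or SMC1 (percent, 95% Wilson intervals) by the distance in kb to the nearest WT_H3K27ac peak, in CTCF-WT (circles) and CTCF-KO (squares). H3K27ac gains in CTCF-WT fall from 31.3 to 7.50%, while p65 gains in CTCF-WT are highest over 50 kb, at 2.09%.

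Short sequence matches were counted in the central 1 kb of each region on both strands, as a description. The κB consensus was matched in 11.7% (11.3 to 12.1%) of primed regions, 13.3% of poised, 15.7% (15.1 to 16.4%) of active and 13.2% of all distal regions. It was matched in 19.7% (15.7 to 24.5%) of those that gained p65 in CTCF-WT and 31.4% (20.3 to 45.03%) of the 51 that gained it in CTCF-KO. In the 101 bases at the summit of the gained p65 peak it was matched in 9.87% (7.04 to 13.7%) for CTCF-WT and 9.80% (4.26 to 20.98%) for CTCF-KO. The same windows of p65 peaks in active regions held it in 13.4% (11.95 to 14.9%) and 16.4% (13.7 to 19.6%), and those of all p65 peaks in 13.4% and 14.4%.

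The other motifs differed less between primed and all distal regions. AP-1 (TGANTCA) was matched in 31.7% of primed and 32.04% of all distal regions, PU.1 (GAGGAAGT) in 11.9 and 11.5%, RUNX (TGTGGTT) in 26.7 and 26.9%, STAT (TTCNNNGAA) in 32.2 and 31.7% and the interferon response element (GAAANNGAA) in 34.1 and 33.9%. STAT and interferon matches can share a GAA. AP-1 was matched in 39.2% (33.9 to 44.7%) of the primed regions that gained p65 in CTCF-WT, and RUNX in 43.1% (30.5 to 56.7%) of those that gained it in CTCF-KO. Of the 926 with a WT STAT5 peak, 55.1% (51.9 to 58.3%) held a STAT match. The CTCF consensus was matched in 3.17% of the 3250 with a WT CTCF peak and 0.551% of all primed regions. The median GC content of the windows was 42.0% in primed, 43.8% in active and 42.7% in all distal regions.

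Primed regions lay near most genes. Of 21911 protein-coding genes, 15736 (71.8%) had the centre of a primed region within 100 kb of the start site. A region that gained H3K27ac lay within that distance of 20.8% of all genes in CTCF-WT and 9.94% in CTCF-KO, one that gained p65 of 2.52 and 0.534%, and one that gained SMC1 of 7.35 and 1.73%. By the nearest start site the 23214 regions fell to 8338 genes. The most fell to Myc (45), the proto-oncogene, of which 8 gained H3K27ac in CTCF-WT and 9 in CTCF-KO. Cited2 (40), a CBP/p300-binding regulator, had 19 and 5. Zeb2 (39), a repressor needed by dendritic cell lineages, had 8 and 0, Pde4d (37), a cAMP phosphodiesterase, 3 and 1, and Inhba (36), the activin A subunit, 14 and 4. p65 was gained in CTCF-WT at 3 of the Inhba and 2 of the Zeb2 regions, and in CTCF-KO at 1 of the Inhba regions.

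The promoters of the nearest genes were compared by the mark their region gained. In WT, H3K27ac marked the promoters of 67.2% (65.1 to 69.2%) of the 2011 genes nearest to an H3K27ac gain in CTCF-WT, 58.6% of the 8338 nearest to any primed region and 44.1% of all. Of the 291 genes nearest to a p65 gain in CTCF-WT it marked 55.0% (49.2 to 60.6%). p65 was gained in CTCF-WT at the promoters of 7.22% (4.77 to 10.8%) of these 291 genes, of 3.62% (3.24 to 4.04%) of the 8338 and of 2.41% of all. The 5959 genes whose primed regions gained nothing in CTCF-WT had it at 2.60% (2.23 to 3.04%). H3K27me3 in WT marked the promoters of 35.4% (30.1 to 41.0%) of the genes nearest to a p65 gain and 28.1% of the 8338.

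Inflammatory genes were looked up by list, by the number with a gaining primed region within 100 kb in CTCF-WT and CTCF-KO. Of 17 inflammatory cytokines, 9 and 7 had an H3K27ac gain, 2 and 1 a p65 gain and 4 and 0 an SMC1 gain. Il6, which had 5 primed regions, had 3 with H3K27ac gained in CTCF-WT and 2 in CTCF-KO, and 2 with SMC1 gained in CTCF-WT. Il12b, for the shared subunit of IL-12 and IL-23, had 1 of 2 with H3K27ac gained, in CTCF-WT alone. A region 15584 bp from the Il1b start (chr2:129354198-129356912), which also counts for the neighbouring Il1a, had p65 in WTLPS alone (7.01), with H3K27ac at 4.55 in WTLPS and 4.998 in KOLPS.

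Of 15 chemokines, 7 and 3 had an H3K27ac gain, 2 and 0 a p65 gain and 4 and 0 an SMC1 gain. The p65 gain of Cxcl5 and its neighbour Cxcl3 was the region described above. No primed region lay near Ccl2 and Ccl7, which recruit monocytes.

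Of 15 genes for NF-κB subunits and feedback inhibitors, 7 and 5 had an H3K27ac gain, 1 and 1 a p65 gain and 5 and 1 an SMC1 gain. Tnfaip3 had 2 regions with p65 gained in CTCF-WT and 1 in CTCF-KO. Of these, the region at chr10:18945746-18950096, the one described above for its H3K27ac gain in CTCF-KO, had p65 at 5.93 in WTLPS alone and H3K27ac at 7.28 in WTLPS and 9.44 in KOLPS. A region assigned to Nfkbiz, the inducible IκBζ gene, lay 149394 bp away (chr16:55686716-55692293) and had p65 at 10.8 in WTLPS alone. Its H3K27ac fold was 10.01 in WTLPS, 3.43 in KO and 6.66 in KOLPS, and SMC1 was called in all 4 conditions, highest in WTLPS (12.4).

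Of 17 genes of the TLR pathway, 4 and 1 had an H3K27ac gain, 2 and 0 a p65 gain and 5 and 0 an SMC1 gain. A region nearest to Tlr1, a receptor for bacterial lipopeptides, had p65 at 7.55 in WTLPS alone and H3K27ac at 6.83 in WTLPS, 5.15 in KO and 9.996 in KOLPS. Tlr4, the LPS receptor, had 8 primed regions and no gain of any of the 3.

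Of 15 interferon response genes, 8 and 4 had an H3K27ac gain, 0 and 0 a p65 gain and 8 and 0 an SMC1 gain. Ifit1, Ifit2 and Ifit3, neighbours that encode inhibitors of viral translation, shared regions, and each had 3 with H3K27ac gained in CTCF-WT and 1 in CTCF-KO. Oasl1 also had 3 and 1. Rsad2, an antiviral enzyme gene, had an SMC1 gain without an H3K27ac gain.

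Of 11 genes for costimulation and migration, 4 and 3 had an H3K27ac gain, 0 and 0 a p65 gain and 2 and 2 an SMC1 gain, with Cd80 having 2 H3K27ac gains in each genotype and Cd86 2 in CTCF-WT alone. Of 15 myeloid and dendritic cell transcription factors, 5 and 1 had an H3K27ac gain, 0 and 0 a p65 gain and 1 and 0 an SMC1 gain. Runx1 had 13 primed regions and no gain. The Zeb2 region with the highest p65 fold (16.7 in WTLPS alone) lay 463691 bp from its start site, outside the window.

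Of 13 AP-1 and immediate early factors, 2 and 4 had an H3K27ac gain, 1 and 1 a p65 gain and 2 and 1 an SMC1 gain. The p65 gain was at Batf, with 2 such regions in each genotype among its 13 primed regions within 100 kb. Of 18 lineage genes of other cells, which serve as a comparison, 5 and 2 had an H3K27ac gain, 2 and 0 a p65 gain and 0 and 0 an SMC1 gain. These p65 gains were near Pax6 (fold 5.39 in WTLPS) and Cd3e. Not all genes of this list were unmarked, since Pax5, Klf1 and Tcf7 had an H3K4me3 promoter peak in all 4 conditions. Pax5 was among the 5 with an H3K27ac gain in CTCF-WT. The share of genes with an H3K27ac gain in CTCF-WT was 52.9% (31.0 to 73.8%) for the cytokines and 53.3% (30.1 to 75.2%) for the interferon response genes, but also 27.8% (12.5 to 50.9%) for the lineage genes of other cells, against 20.8% of all genes. A gene without a primed region within 100 kb could not show a gain. Such a region lay near 17 of 17 cytokines, 13 of 15 interferon response genes and 13 of 18 lineage genes, against 71.8% of all genes. Over the other lists the share was 80.0 to 100%. The part of this in the gains was not tested. With 11 to 18 genes a list and regions shared between neighbours, these intervals are wide.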

How the data were processed

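ChIP-seq peak lists of CTCF, SMC1, p65, STAT5, H3K27ac, H3K4me3, H3K27me3 and H3K4me1 were analysed, with 1 list for each antibody and condition. Per the labels' processing notes, the authors used BWA 0.7.12, Picard 1.77, MACS2 2.1.2 and deepTools 3.1.3 on mm10, while the study's methods name other versions. The methods describe peak calling per replicate and the study's reporting form describes merged replicates, and which of these a deposited list is was not settled from the sources used here. The deposited lists give for each peak a fold enrichment (ratio) over background, and the authors' −log10 p and −log10 q from MACS2. Read depth is not in them, and the background coverage was recovered from fold and p of each peak. A longer list can hold more overlaps at the same biology, so equal-length and thinned lists were tried as alternatives. The H3K4me1 peak names carry another antibody supplier than the label.

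Peaks were intersected with Python 3.11.15, pandas 2.3.3 and numpy 2.4.6, with Wilson intervals at 95%, and scripts were tested on simulated data. An overlap needed 1 bp. Gene starts came from GENCODE vM21, and a region was named by the nearest start of a protein-coding gene. It was placed in an intron, in an exon or outside genes by its centre alone. Sequences were read from the RefSeq GRCm38 genome with samtools 1.23.1, and the κB and CTCF consensus were matched by name. No model was fitted, since a condition has 1 list.

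The members and lists were chosen with earlier results of these data known. Regions were named by a rule: the 5 highest p65, H3K27ac and SMC1 folds among gaining regions of each genotype, the 3 highest p65 folds among those gaining all 3, the 5 genes nearest to the most regions, up to 4 genes of each of 9 lists nearest to a p65 gain, and the 3 widest. Regions with a peak in at least 20 of the 30 lists were not named. Other list genes given as examples were chosen after their values were seen. Cxcl11 and Mx2 were not found in the annotation used. The 4 inputs were not analysed here.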

Additional observations from a re-analysis of the deposited data

How the results depend on the processing

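Over 14 alternatives, 70 of 92 counts stayed within 1.5 times the reported one and 22 moved further. With a −log10 q of at least 10, H3K27ac gains were 106 in CTCF-WT and 39 in CTCF-KO, p65 gains 132 and 21, and SMC1 gains 444 and 34. With equal-length lists, p65 gains were 24 and 11 and SMC1 gains 161 and 329. A width minimum of 2 kb left 11146 regions, with 1960 and 715 H3K27ac gains and 559 SMC1 gains in CTCF-WT. With no minimum there were 47320 regions and 311 SMC1 gains in CTCF-KO. In the central 1 kb, H3K27ac gains were 1895 and 708, p65 gains in CTCF-WT 198 and SMC1 gains in CTCF-KO 125. The stronger part of the H3K4me1 list by −log10 q held 12250 regions, with 710 H3K27ac gains in CTCF-KO. Fewer regions, bases or peaks enter these counts by construction, with 2 exceptions. With no width minimum more regions enter. With equal-length lists the SMC1 gains in CTCF-KO could not fall, since the cut shortened the KO list and left KOLPS whole. The ratio of CTCF-KO to CTCF-WT gains lay between 0.347 and 0.472 for H3K27ac, where the rule sets it in part, between 0.141 and 0.187 for p65 except 0.458 with equal-length lists, and between 0.0766 and 0.337 for SMC1 except 2.04 with equal-length lists, where the order of the genotypes turned.

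No paired analysis was possible because each antibody and condition has 1 list. The weak end of the lists limits the counts, since most gained H3K27ac and SMC1 peaks lay below the median fold of their list, and a peak that was not called is not shown to be absent.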

Other observations

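A stretch of chromosome 16 stood out after the values were seen, among the 294 genes that were nearest to at least 10 primed regions. It lies before Pou1f1, a transcription factor of the pituitary, at chr16:65332679-65506136, and spans 173.5 kb. Of its 11 primed regions, 10 gained H3K27ac in CTCF-WT, with WTLPS folds from 4.55 to 9.10 and a median of 5.69. In CTCF-KO, H3K27ac was called at 1 of them without LPS and at 3 with LPS. No p65 peak was called at any of the 11 in any condition. SMC1 was called at 2 without and 5 with LPS in CTCF-WT, and at 1 without and 1 with LPS in CTCF-KO. The Pou1f1 promoter, 14375 bp beyond the last region, had no H3K4me3 or H3K27ac peak in WT or WTLPS and had H3K27me3 in WT. On the other side the next gene, Htr1f, lies 226825 bp away. The next highest shares were 8 of 11 regions at Klf7, 10 of 15 at St3gal1, 8 of 13 at Atp2b1 and 8 of 14 at Calcrl.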
